A study of Arabidopsis thaliana with 9 samples.

Results

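The genes described here encode structural proteins of the seed oil body: 7 oleosin genes (OLEO1 to OLEO4, AT3G01570, AT3G18570 and AT2G25890), the caleosin genes PXG1 (CLO1, AT4G26740) and PXG2 (CLO2, AT5G55240), and the steroleosin gene HSD1 (AT5G50600). They were chosen by gene identifier as known seed oil body genes, 10 of the 33557 genes in the authors' deposited table, and all 10 are listed there in each of 3 comparisons. The RNA came from whole seeds of Arabidopsis thaliana, imbibed on agarose and collected 12 h later, in 3 genotypes with 3 biological replicates each. The genotypes were nac25 and nac1L, each a loss-of-function mutant of another transcription factor of the plant NAC family, and the wild type Col-0 (WT). The labels give no allele or line name and no promoter construct, and all seeds were collected at 12 h, so a change in a mutant and a delay in its germination cannot be told apart. In RNA from whole seeds, fewer cells of a type and less RNA per cell cannot be told apart either.

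Plant embryos store oil as triacylglycerol in small organelles, the oil bodies, each bounded by a single layer of phospholipid. Oleosins are short proteins whose long hydrophobic hairpin, closed by a proline-rich knot, dips into the oil, and they coat the surface and keep neighbouring oil bodies from fusing. Caleosins share the hairpin and add a calcium-binding domain and a peroxygenase activity, and steroleosins join an oil body anchor to a hydroxysteroid dehydrogenase. The transcripts of these genes accumulate during seed maturation under regulators such as ABI3, FUS3, LEC2 and ABI5, are stored in the dry seed and decline after imbibition, while the proteins are removed as the oil is used by the seedling.

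The upstream regions of the members shared a sequence feature that the choice of genes did not use. In the 250 bases before each annotated gene start, read from the RefSeq genome TAIR10.1, all 10 members held the letters CATGCA on either strand. CATGCA is the core of the RY element, which B3 regulators such as ABI3 and FUS3 bind. The same letters stood in 8.43% of the windows of 27443 nuclear protein-coding genes. The match nearest to the gene start lay within 150 bases of it in all 10 members, and is shown here for 9 of them with 12 bases on each side, read in the direction of the gene, with the RY core in capitals.
OLEO1 (chr4:12900338-12900367, plus strand): gtggcctacaatTGCATGatgtctccattg
OLEO3 (chr5:20819997-20820026, plus strand): aCATGCAacggcTGCATGaagacacttttg
OLEO4 (chr3:10243084-10243113, plus strand): ttttgtttcaCATGCATGctgtccaatctg
AT3G01570 (chr3:222920-222949, minus strand): aaacttgttactCATGCAagcttctcaggt
AT3G18570 (chr3:6396659-6396688, minus strand): gtttacaaacatTGCATGaatgccacctca
AT2G25890 (chr2:11037217-11037246, plus strand): tcaaagtagctcCATGCAgaactgacacgc
PXG1 (chr4:13475379-13475408, minus strand): ttcgtcggcgcgTGCATGtccgccacgcac
PXG2 (chr5:22405850-22405879, plus strand): cattgtcgtgtgTGCATGtccgccacggag
HSD1 (chr5:20592023-20592052, minus strand): tcatcacccatgTGCATGgttattagagcg
OLEO4 held the longer palindromic form CATGCATG. The sites of PXG1 and PXG2 shared a run of 16 bases, gTGCATGtccgccacg. The site of AT2G25890 lay inside the annotated neighbour AT2G25880, and the windows of 4 members overlapped another annotated gene. A match is only a run of letters, and binding was not measured.

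A second core, ACGTG, belongs to the ABRE, the abscisic acid response element that ABI5 and related factors bind. It was searched on both strands and includes every CACGTG. It was found upstream of 7 of the 10 members (22.9% of all windows), and together with CATGCA in the same 7 (2.22% of all windows). OLEO2, OLEO4 and PXG2 had no match to these letters in this window. The palindrome CACGTG, which gives a match on each strand, was found in 4 members, OLEO1, OLEO3, AT3G18570 and AT2G25890 (6.49% of all windows). OLEO1 and OLEO3 were arranged alike: each held a pair of RY cores 5 bases apart and, 13 bases further towards the gene, a CACGTG. This spacing, searched for after it had been seen in them, stood in no other window, 2 of 27443 (0.00729%). The full windows of these 2 genes are given with both cores in capitals.
OLEO1 (chr4:12900180-12900429, plus strand): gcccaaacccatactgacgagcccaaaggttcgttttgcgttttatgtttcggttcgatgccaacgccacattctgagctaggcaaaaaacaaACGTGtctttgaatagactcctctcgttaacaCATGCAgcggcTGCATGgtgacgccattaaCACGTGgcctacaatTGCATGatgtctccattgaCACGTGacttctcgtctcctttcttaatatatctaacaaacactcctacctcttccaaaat
OLEO3 (chr5:20819818-20820067, plus strand): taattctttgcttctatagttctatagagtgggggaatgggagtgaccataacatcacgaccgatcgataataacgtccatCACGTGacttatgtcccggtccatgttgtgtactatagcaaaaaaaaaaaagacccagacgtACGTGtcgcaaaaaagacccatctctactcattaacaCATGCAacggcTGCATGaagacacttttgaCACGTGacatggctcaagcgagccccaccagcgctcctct
The authors' table gives no coordinates and does not name its genome build, so these sequences are tied to the expression values by gene identifier alone.

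**Figure D1:**
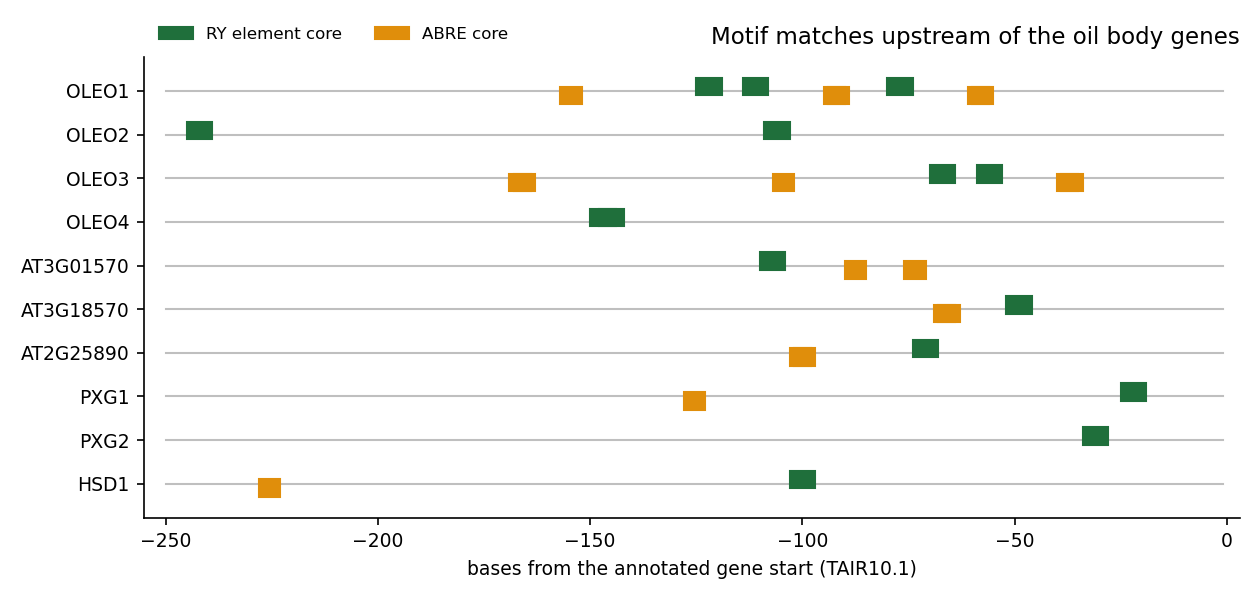
Each line is the 250 bases upstream of the annotated start of 1 oil body gene, with distance from the start in bases on the x axis. Green boxes are RY cores (CATGCA) and orange boxes ABRE cores (ACGTG), on either strand. All 10 genes have a green box between -150 and the start, and OLEO2, OLEO4 and PXG2 have no orange one.

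The expression data consisted of the authors' own comparisons, a log2 fold, a p-value and a q-value for each gene and genotype pair, with no value per library or genotype. Levels, sequencing depth and the spread between replicates are therefore unknown here, and no order of abundance among the members can be given. A gene was called when its q in the authors' table did not exceed 0.05, and the smallest q in the table is 0.000463. Over every tested gene the log2 folds had a median of -0.27 for nac25 against WT, -0.07 for nac1L against WT and -0.20 for nac25 against nac1L. Centring on these medians, with the p recomputed from the error implied by fold and p, moved the calls of all genes towards higher ones. It takes the median gene as unchanged, which was not tested. Calls after centring are given where they differ. Where p sat at its smallest value, that error may be too large, so centring may lose lower calls too readily. The targeted genes had log2 folds of -3.97 (NAC25, in nac25 against WT) and -4.61 (NAC1L, taken as AT3G12977, in nac1L against WT) in the authors' deposited table, but both had too few reads for a test. Each also had a negative fold in the other mutant, -2.66 for NAC25 in nac1L and -1.89 for NAC1L in nac25, untested for the same reason in the authors' deposited table.

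Of the 10 members, 8 were tested in every comparison and 2 in none. OLEO1 (AT4G25140), a major seed oleosin gene known to limit oil body size, and HSD1 were marked HIDATA in all 3 comparisons of the authors' deposited table, the status for too many reads. That status was given to 16 genes of 33557 in nac25 against WT and to 17 in each of the other comparisons. The fold of 0 and q of 1 listed beside it are placeholders, so the table says nothing about change of OLEO1 or HSD1. No member had too few reads. HSD1 exists in a second copy, AT5G50700, which was also marked HIDATA throughout. Their coding sequences in TAIR10.1 are identical over all 1050 bases, so reads from the coding region cannot be assigned to either copy.

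All 8 tested members were higher in nac25 than in WT. By the direction of the call, 6.25% of all 18155 tested genes were higher in this comparison (15.8% after centring) and 32.8% were lower (14.8% after centring), with no member among the lower ones. The folds lay close together, with log2 values between 0.49 and 0.75, or 1.41-fold to 1.69-fold, and a median of 0.64 against -0.27 for all tested genes. AT3G18570 had the largest difference in the authors' deposited table (log2 0.75, 1.69-fold, q = 0.000463), and AT3G01570 followed (0.72, 1.64-fold, q = 0.000463). Both encode oleosins, and neither has a symbol other than its identifier in the RefSeq annotation. OLEO2 (AT5G40420), another major seed oleosin, had a log2 fold of 0.69 in the authors' deposited table, as did the caleosin gene PXG1 (1.62-fold each, q = 0.000463). The remaining oleosin genes were AT2G25890 (log2 0.59, q = 0.000463), OLEO3 (AT5G51210, 0.55, q = 0.00124) and OLEO4 (AT3G27660, 0.49, q = 0.00465), beside the second caleosin gene PXG2 (0.59, q = 0.000463), all in the authors' deposited table. Oleosin and caleosin genes thus overlapped in the size of their folds. Among all tested genes, between 2.27% (AT3G18570) and 5.70% (OLEO4) had a fold above that of a member.

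In nac1L the members divided. Of the 8 tested, 4 were higher than in WT, all of them oleosin genes, and the other 4 did not pass, against 9.62% of 18233 tested genes called higher (12.4% after centring, with 4 members called again) and 18.9% called lower (15.2% after centring). The higher genes were AT3G18570 (log2 0.55, 1.46-fold, q = 0.000463), AT2G25890 (0.50, 1.42-fold, q = 0.000866), AT3G01570 (0.44, 1.36-fold, q = 0.00351) and OLEO2 (0.40, 1.32-fold, q = 0.0337) in the authors' deposited table. OLEO2 was the weakest of these calls. The caleosin genes PXG1 (log2 0.26, q = 0.12) and PXG2 (0.19, q = 0.245) and the oleosin genes OLEO3 (0.14, q = 0.431) and OLEO4 (-0.15, q = 0.462) were not called in the authors' deposited table. OLEO4 was the only tested member with a negative fold in any comparison. A missed call does not show that a gene was alike in nac1L and WT: taking the fold and p of the authors' deposited table as normal, the approximate 95% interval of the log2 fold ran from 0.01 to 0.51 for PXG1, from -0.05 to 0.43 for PXG2, from -0.10 to 0.38 for OLEO3 and from -0.42 to 0.13 for OLEO4. The median over the 8 members was 0.33, against -0.07 over all tested genes.

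**Figure D2:**
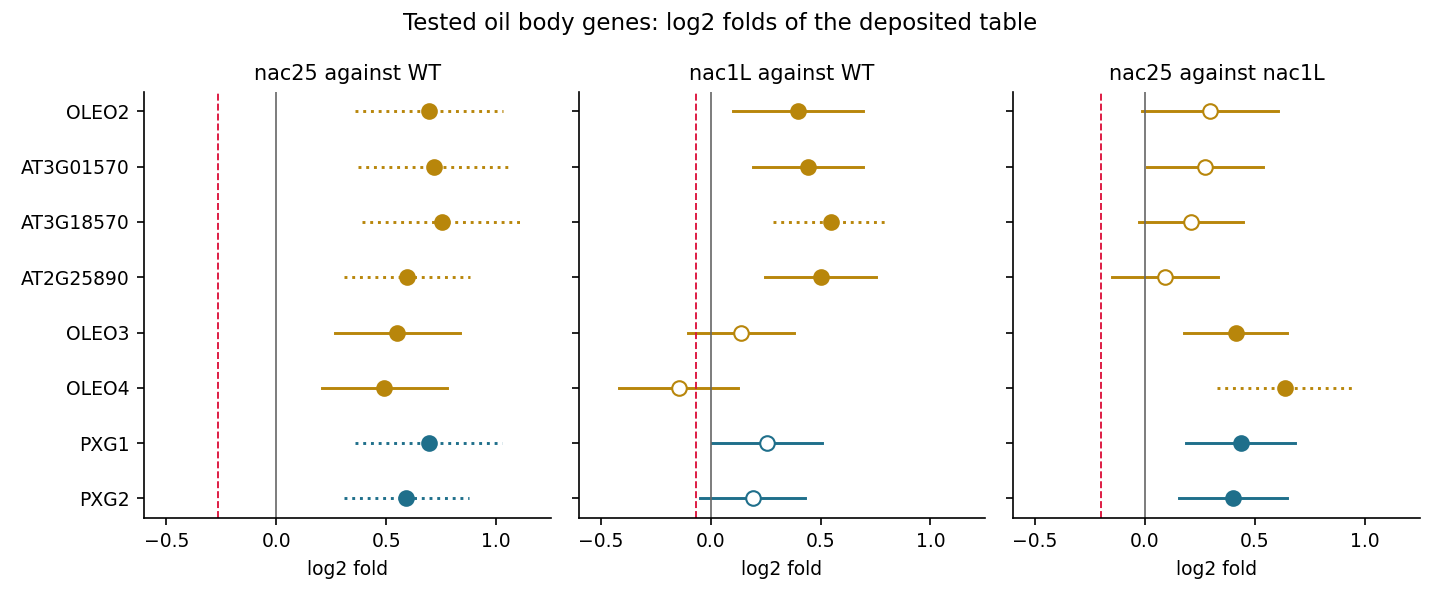
Log2 folds of the 8 tested oil body genes in the authors' deposited table, 1 panel a comparison, oleosin genes in ochre and caleosin genes in blue. Filled points were called (q at or below 0.05), lines are approximate 95% intervals implied by the fold and its p, dotted where p sits at the smallest value of the table so that the true interval may be shorter, and the dashed red line is the median of all tested genes. All 8 points are filled in nac25 against WT, the upper 4 in nac1L against WT and the lower 4 in nac25 against nac1L.

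The mutants were compared with each other directly by the authors, which tests whether a member differed between them. OLEO4, PXG1, OLEO3 and PXG2 were higher in nac25 than in nac1L, 4 of the 8 tested members, whereas 0.609% of 17743 tested genes were higher (2.72% after centring) and 11.7% were lower (1.56% after centring). OLEO4 had a log2 fold of 0.64 (1.55-fold, q = 0.000463), PXG1 one of 0.43 (1.35-fold, q = 0.00437), OLEO3 one of 0.41 (1.33-fold, q = 0.00381) and PXG2 one of 0.40 (1.32-fold, q = 0.00829) in the authors' deposited table. These are the 4 members that were called in nac25 and not in nac1L against WT. The other 4, called in each mutant against WT, had positive folds that did not pass in the authors' deposited table: OLEO2 (0.30, q = 0.15), AT3G01570 (0.27, q = 0.12), AT3G18570 (0.21, q = 0.19) and AT2G25890 (0.09, q = 0.623). Their approximate 95% intervals reached up to 0.60 for OLEO2, 0.54 for AT3G01570, 0.44 for AT3G18570 and 0.33 for AT2G25890, so differences between the mutants as large as that of PXG2 (0.40) lie within all of these but the last. After centring, 7 of the 8 members were higher in nac25 and only AT2G25890 did not pass (centred log2 fold 0.29, q = 0.076), so the division into 4 and 4 depends on the scaling. The 3 comparisons share libraries and the 3 folds of each member add up within 1e-06, so they are not independent of each other. Among all 17555 genes tested in every comparison, 937 (5.34%) were called higher in both mutants against WT. Of the same 17555 genes, 80 (0.456%) were called higher in nac25 against both WT and nac1L, and 33 of these were not called in nac1L against WT.

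**Figure D3:**
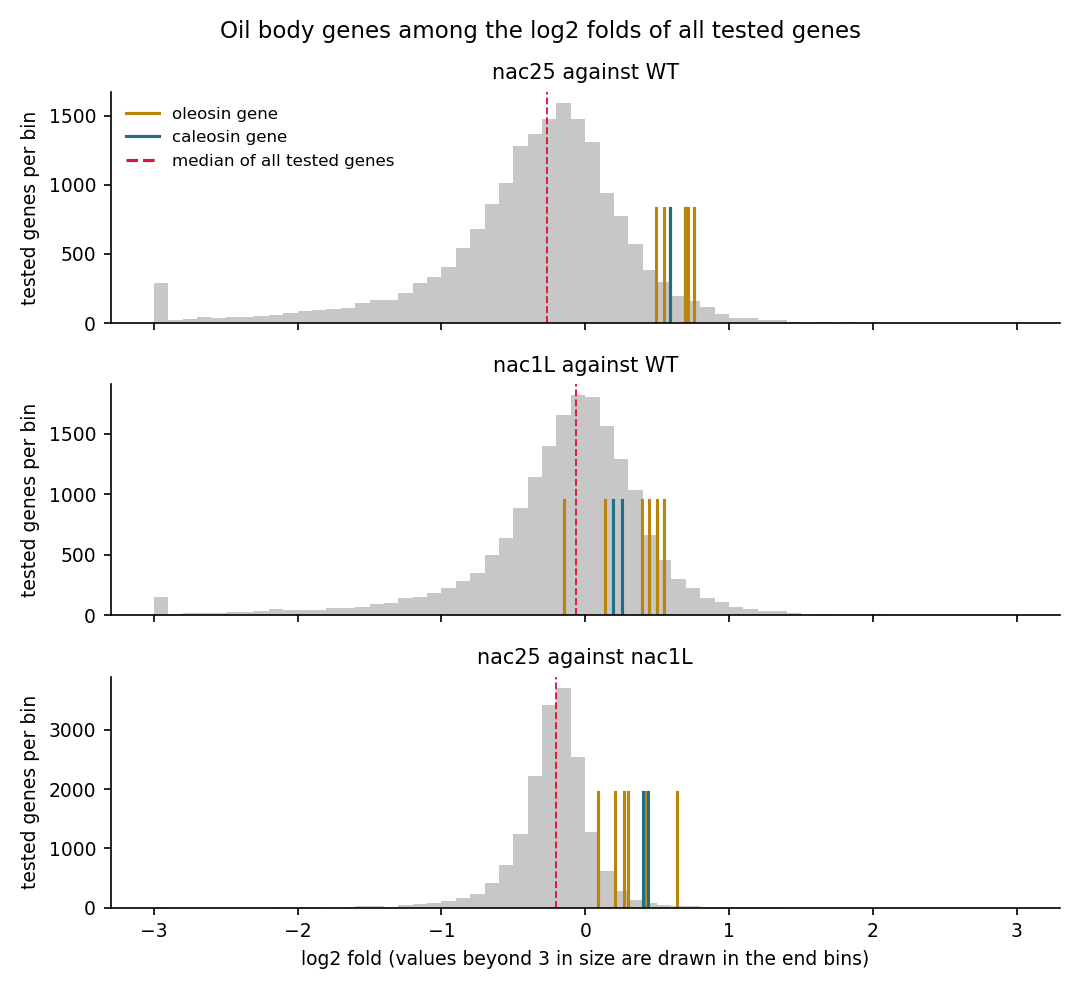
Histograms of the log2 folds of all tested genes in bins of 0.1, 1 panel a comparison, with the 8 tested oil body genes as vertical lines (oleosin genes ochre, caleosin genes blue, some overlapping) and the median of all tested genes dashed in red. The members lie right of the median in nac25 against WT and in nac25 against nac1L, and in nac1L against WT all but OLEO4 do.

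The closest relatives among the members were compared side by side. PXG1 and PXG2, whose coding sequences are 80.2% identical, had similar folds in the authors' deposited table, 0.69 and 0.59 in nac25 against WT and 0.26 and 0.19 in nac1L against WT. OLEO2 and OLEO4 are each other's closest relatives among the oleosin members (64.2% identical). In nac1L against WT OLEO2 had a log2 fold of 0.40 and was called, and OLEO4 one of -0.15 and was not, in the authors' deposited table. Whether these members differ from each other was not tested. The longest run of identical bases was 25 between the caleosin genes and 17 between OLEO2 and OLEO4. In nac1L the called members were 4 oleosin genes on 3 chromosomes (2, 3 and 5), with a match to ACGTG in 3 of them and not in OLEO2. Of the 4 members not called in nac1L, OLEO3 and PXG1 held these letters. AT1G48990, the oleosin gene with the coding sequence closest to AT3G18570 (66.7% identical) and no member, had log2 folds of 0.48 in nac25 (q = 0.00159) and 0.48 in nac1L (q = 0.000866) against WT and of -0.00 between the mutants (q = 0.997) in the authors' deposited table.

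Other genes of the oleosin, caleosin and steroleosin families were mostly not tested. Of 14 further oleosin, caleosin and steroleosin genes, 5 were tested, 8 had too few reads, among them every caleosin gene other than PXG1 and PXG2 on the list, and 1, the HSD1 copy, had too many. Higher calls numbered 3 of 5 in nac25 (AT1G48990, HSD5 with a log2 fold of 0.56, q = 0.000463, and HSD6 with 0.51, q = 0.0293) and 3 of 5 in nac1L (AT1G48990, HSD3 with 0.85, q = 0.00573, and HSD6 with 0.72, q = 0.000463) in the authors' deposited table, and none was lower against WT (3 and 4 higher after centring). The shares of all tested genes called higher were 6.25% in nac25 and 9.62% in nac1L (15.8% and 12.4% after centring). Between the mutants HSD3 (log2 -0.64, q = 0.0227) and HSD2 (-0.51, q = 0.0116) were lower in nac25 in the authors' deposited table, calls lost after centring. HSD5 was not called there as deposited (log2 0.25, q = 0.145) and was higher in nac25 after centring (centred log2 fold 0.45, q = 0.00561). Between the mutants 11.7% of all tested genes were lower (1.56% after centring) and 0.609% higher (2.72% after centring). Of 10 further oleosin genes, most of them known from the anther tapetum, 3 were tested and none was called against WT (1 higher in nac25 after centring).

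Genes for oil body formation also held higher calls. SEIPIN1, a protein of the endoplasmic reticulum where oil bodies bud, had log2 folds of 0.56 in nac25 and 0.59 in nac1L (q = 0.000463 each), and LDIP, a protein of the lipid droplet surface, 0.58 (q = 0.000866) and 0.53 (q = 0.00226) against WT in the authors' deposited table. Counts were 2 higher and 1 lower of 7 tested in nac25, or 5 higher and 0 lower after centring, and 3 higher and 0 lower in nac1L. Of all tested genes, 6.25% were higher and 32.8% lower in nac25 (15.8% and 14.8% after centring), and 9.62% were higher in nac1L. The third higher gene in nac1L was SEIPIN3 (log2 0.43, q = 0.0118), and the lower 1 in nac25 was LDAP2, of the lipid droplet-associated proteins (-0.63, q = 0.000463), in the authors' deposited table, a call lost after centring. The p of LDAP2 sat at the smallest value of the table, so its implied error may be too large and this loss is uncertain.

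Triacylglycerol synthesis genes were called in both directions. Of 11 tested, 2 were higher and 5 lower in nac25 (4 and 4 after centring), and 2 were higher and 4 lower in nac1L (4 and 4 after centring). Of all tested genes, 6.25% were higher and 32.8% lower in nac25 (15.8% and 14.8% after centring). In nac1L 9.62% were higher and 18.9% lower (12.4% and 15.2% after centring). Called in either direction were 39% of all tested genes in nac25 and 28.5% in nac1L. The lower ones in each mutant included ROD1, which feeds unsaturated diacylglycerol into oil (log2 -2.32 in nac25, q = 0.00159, and -1.40 in nac1L, q = 0.0029), the fatty acid desaturase genes FAD3 (-2.09 and -1.36, q = 0.000463 each) and FAD2 (-1.10 and -0.95, q = 0.000463 each), and the acyltransferase gene LPAT2 (0.499 times the WT value in nac25 and 0.589 times in nac1L, q = 0.000463 each) in the authors' deposited table. The fifth in nac25 was PDAT1 (log2 -0.54, q = 0.0029 in the authors' deposited table), a call lost after centring. The higher genes were DGAT1, which encodes the acyltransferase of the last step of oil synthesis (log2 0.62 in nac25 and 0.61 in nac1L, q = 0.000463 each), and the phosphatase gene PAH2 (0.39, q = 0.0102, and 0.48, q = 0.000463) in the authors' deposited table. PDAT1, DGAT1 and PAH2 were singled out with their values already known. When nac25 was set against nac1L, FAD3 was lower too (log2 -0.73, q = 0.000463 in the authors' deposited table), the only call of this list between the mutants, as deposited and after centring.

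Genes for oil body removal had no higher call against WT as deposited. MIEL1, a ubiquitin ligase gene linked to the turnover of oil body proteins in seedlings, was lower in each mutant (log2 -1.56 in nac25 and -1.09 in nac1L, q = 0.000463 each) in the authors' deposited table. In nac25, PUX10, an adaptor that recruits the CDC48 extraction machinery to oil bodies (log2 -0.40, q = 0.00573), and the oil lipase gene SDP1 (-0.40, q = 0.00651) were lower too in the authors' deposited table, but both calls were lost after centring. Of 7 genes tested, 3 were thus lower in nac25 and 1 in nac1L, near the shares over all tested genes (32.8% and 18.9%). After centring, 1 was higher and 1 lower in nac25.

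Of 13 listed regulators of seed maturation genes, 12 stood in the table and 9 were tested. Called in either direction were 3 of the 9 in nac25 and 2 in nac1L, near the 39% and 28.5% of all tested genes. ABI5, a bZIP factor of abscisic acid signalling, was higher (log2 0.34 in nac25, q = 0.0216, and 0.39 in nac1L, q = 0.00925), and ABI4 lower (-1.66 and -1.37, q = 0.000463 each), in the authors' deposited table. WRI1, a regulator of fatty acid synthesis, was lower in nac25 (log2 -0.59, q = 0.0449) in the authors' deposited table, a call lost after centring. ABI3 and FUS3, B3 regulators, were not called against WT as deposited, while LEC1, LEC2 and L1L had too few reads. After centring, 3 regulators were higher in each mutant: ABI5 and ABI3 (centred q = 0.00336 in nac25 and 0.0388 in nac1L) in both, EEL in nac25 and FUS3 in nac1L (centred q = 0.0444). ABI4 alone was lower, in each mutant. Of all tested genes, 15.8% were higher and 14.8% lower in nac25 after centring, and 12.4% and 15.2% in nac1L.

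**Figure D4:**
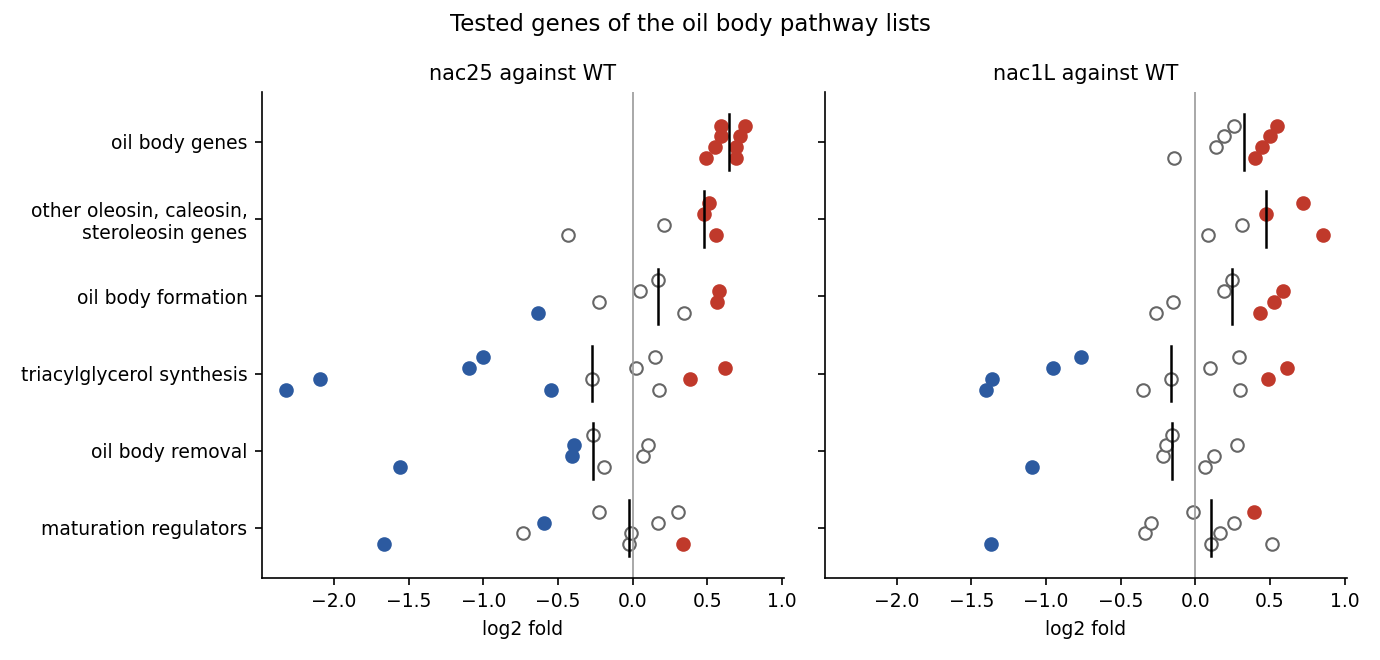
Log2 folds of the tested genes of 6 lists against WT in the authors' deposited table, nac25 left and nac1L right. Red points were called higher, blue points lower and open points not called, and the black bar is the list median, which is 0.64 and 0.33 for the oil body genes. Points are spread vertically within a list only to keep them apart.

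Tissue markers moved beside these results. Of the storage protein genes that mark seeds, 4 of 8 had too many reads for a test against WT and the other 4 were tested: in nac25 2 were higher (CRB and SESA4) and 1 lower (SESA1), in nac1L none was higher and 2 were lower (SESA1 and SESA2). Of all tested genes, 6.25% were higher and 32.8% lower in nac25, and 9.62% higher and 18.9% lower in nac1L. CRB, a cruciferin gene, had log2 folds of 0.53 in nac25 (q = 0.00949) and -0.15 in nac1L (q = 0.536) against WT and 0.68 between the mutants (q = 0.000463) in the authors' deposited table, side by side with 0.49, -0.15 and 0.64 for OLEO4. The albumin genes varied. SESA1 had -1.82 in nac25 and -2.09 in nac1L against WT (q = 0.000463 each), and SESA2 -0.22 (q = 0.167) and -0.71 (q = 0.000463), in the authors' deposited table. SESA4, with 0.49 (q = 0.000463) and 0.19 (q = 0.288) there, was called higher in nac25 alone, as CRB was. Between the mutants, 5 storage protein genes were tested, all with positive folds, and 2 were higher in nac25 (5 after centring). Of all tested genes, 0.609% were higher there (2.72% after centring). The 2 were CRB and SESA2 (log2 0.49, q = 0.000463), while SESA1 (0.27, q = 0.0827), SESA3 (0.31, q = 0.16) and SESA4 (0.31, q = 0.0584) did not pass in the authors' deposited table. Of 7 embryo markers, all tested, 4 were lower in nac25 and 4 in nac1L (3 and 4 after centring), among them SHR, LTP1 and PDF1. Of 5 endosperm markers tested, 2 were lower in each mutant, with list medians of -0.75 in nac25 and -0.42 in nac1L, where 32.8% and 18.9% of all tested genes were lower. They were the expansin gene EXPA2 (log2 -4.88 in nac25 and -4.21 in nac1L) and the mannanase gene MAN7 (-2.06 and -1.73), with q = 0.000463 each in the authors' deposited table. Of 6 seed coat markers, 5 had too few reads and 1 was not called. No member of these marker lists was higher against WT other than the 2 storage protein genes in nac25. Levels cannot be read from this table. A marker at 0 in either genotype of a pair, but not in both, shows as an infinite fold. At 0 in both it can be listed with a fold of 0, as TT10 was in nac1L against WT. The seed coat gene BAN was listed with a fold of 0 in all 3 comparisons, untested for too few reads. Such a fold of 0 is no measure of change. The seed coat gene TT8 had a fold read as minus infinity in nac25 against WT and against nac1L, which puts it at 0 in nac25, and TT10 a positive infinite one in both, which puts it at 0 in WT and nac1L, both untested for too few reads in the authors' deposited table. The part of tissue makeup in the members' folds was not tested.

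The genes with folds most like the members' were found by distance from the pair of member medians (0.33 in nac1L and 0.64 in nac25 against WT) on the log2 scale. Nearest were AT2G42750, a LEA gene (AT2G21490) and AT1G65490, at distances of 0.00782, 0.0151 and 0.0168. The likeness rests on 3 genotypes only: of 18037 genes tested in each mutant against WT, 50 that are no members lay within 0.1 of that point, as did 2 members.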

How the data were processed

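RNA from whole seeds of 9 samples was sequenced from stranded libraries, per the labels' protocols. The submitters' processing notes name Cuffdiff 2.2.1.3, TopHat2 2.1.0 and FastQC 0.11.5. The sources used here do not give the genome build, annotation or normalization. The authors' deposited table holds log2 folds, p-values and q-values per gene and genotype pair, with a test status. KO1 is nac1L and KO2 is nac25, per the labels. The log2 fold was read as the second genotype over the first, and 3122 cells with a spreadsheet error as minus infinity, none of them in a member. Adjusting the deposited p-values by Benjamini-Hochberg over the 3 comparisons together (54131 tests) returned the q-values to within 5.27e-07. The authors' test was used as deposited, since the table holds no values per library.

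Members and lists were chosen with earlier results of these data known. Named genes were all members, the targeted genes, up to 4 called genes per list and comparison, and the 3 nearest in fold. Other genes named were chosen after their values were seen. For centring, the standard error implied by fold and p was kept. This step was tested on simulated data in which p had no smallest value, unlike the deposited p with its floor of 5e-05. The test therefore does not cover genes at that floor, whose implied error may be too large. P-values measure the spread between the biological replicates as the authors fitted it. Identifiers (32809 matched), upstream windows and coding identities came from RefSeq TAIR10.1. Lists are described by counts, with no set test. Python 3.11.15, numpy 2.4.6, pandas 2.3.3, scipy 1.17.1, Biopython 1.88 and matplotlib 3.10.9 were used.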

Additional observations from a re-analysis of the deposited data

Results flagged for a closer look

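These genes differed between the mutants by the authors' own direct comparison, so their changes against the shared WT libraries differ. Among the oil body genes, OLEO4 (log2 0.64), PXG1 (0.43), OLEO3 (0.41) and PXG2 (0.40) were higher in nac25 than in nac1L in the authors' deposited table, and all 4 calls held after centring. Outside the members, GRP14, an oleosin gene known from the anther tapetum, had a larger difference in the same direction (log2 1.17 in the authors' deposited table, q = 0.000463), with log2 folds of 0.46 in nac25 and -0.71 in nac1L against WT that did not pass (q = 0.244 and 0.0610). Lower in nac25 than in nac1L were FAD3 (log2 -0.73), HSD3 (-0.64), FUS3 (-0.54), HSD2 (-0.51), MIEL1 (-0.46), LDAP2 (-0.37) and SDP1L (-0.32) in the authors' deposited table. Of these lower calls only that of FAD3 held after centring on the median of -0.20.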

How the results depend on the processing

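The number of oil body genes called higher was 8 of 8 in nac25 against WT, 4 of 8 in nac1L against WT and 4 of 8 between the mutants, and 0 were called lower in each. These counts stayed within 1.5 times at q thresholds of 0.01 and 0.1, with adjustment within each comparison and with a minimum size of change. In nac1L the threshold of 0.01 left 3. Centring moved the count between the mutants to 7 and left the others at 8 and 4. Bonferroni adjustment gave 0 in every comparison, by construction, since the smallest p of 5e-05 cannot pass it over 54131 tests. For single members, centring brought 3 further calls (OLEO2, AT3G01570 and AT3G18570, between the mutants) and ended none. Folds of the 2 members without a test are placeholders, so the planned median with them was not run. No paired analysis was possible because the table holds no values per library, and leaving out a replicate was not possible for the same reason. Depth is unknown, so precision is known only through the implied intervals.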
